A study of Drosophila subpalustris with 2 samples.

Results

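Silent gene models of Drosophila subpalustris are predicted genes for which whole adults gave no sense reads. They were chosen by their own counts. A model counted as silent when it had 0 sense counts and fewer than 10 antisense counts in both libraries, within the first 4 blocks of the deposited gene list. By this rule 980 of the 13119 models in these blocks were silent (7.47%), out of 17716 models in the whole list. The zeros themselves are therefore a description and not a finding, and what follows describes the antisense reads of these models, their order along the locus tags, and the models beside them.

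The study sequenced polyadenylated RNA of whole adults of this fly to help annotate a draft genome, with 2 libraries in 1 group. Each library came from a pool of 10 to 20 adults of both sexes, kept at room temperature, and was made from 1 µg of RNA with a kit that keeps the strand of each transcript. No strain, treatment, mutation or age is given in the sources used here. The tags carry no gene names, so the whole-body label could not be set against marker genes, and no sequence or function can be given for any silent model. The libraries had 26141490 and 25544996 sense counts (replicates 1 and 2). Levels are given as CPM, the sense counts of a model scaled to a library of 1e6 sense counts. Where a model had 0, up to 3 counts remain possible, or 0.115 CPM in replicate 1 and 0.117 CPM in replicate 2. These limits cover counting error only, as reads that lack molecular identifiers can be copies of 1 molecule.

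A gene prediction program can place a model from the reading frame, from protein similarity or from RNA reads, so a model need not have RNA in the animals that were sequenced. In Drosophila, many genes are read in a single life stage or in few cells. Larval cuticle genes and chemoreceptor genes are known examples in Drosophila melanogaster, and some of these genes sit in clusters of neighbouring copies. Polyadenylated RNA of whole adults holds little RNA of such genes when the cells are few or the stage is absent. Fewer cells of a type and less RNA per cell cannot be told apart in such libraries. Reads that align to several places are assigned to no model in this count layout. Such reads were 2.00% of the total in replicate 1 and 3.12% in replicate 2, and their part in the zeros was not tested.

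The silent models were nearly empty on the antisense strand too. Of the 980, 695 (70.9%) had no antisense count in either library, against 2338 of the 12139 models of these blocks that were not silent (19.3%). Among the 2085 models that had a sense count or 10 antisense counts but missed 10 sense counts in at least 1 library, 882 (42.3%) had none. The antisense limit was part of the rule, so these shares carry no test. All antisense counts of the silent models came to 443 in replicate 1 and 317 in replicate 2. Only 51 silent models had more than 3 antisense counts in either library, and 10 had more than 3 in both. The model with the most was ACLKA7_010626 in block 4, at 9 antisense counts (replicate 1) and 8 (replicate 2). In the column that counts either strand, 699 silent models had 0 in both libraries. In 11 silent models that column was below the antisense count in at least 1 library. The part in the zeros of reads that overlap more than 1 model was not tested.

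The edge of the rule was crossed by few models on the antisense side and by many on the sense side. Inside the antisense limit, 4 silent models reached 9 counts in a library. Just outside it, 5 models without sense counts had exactly 10 in their higher library. In all, 53 models without sense counts were left out for their antisense reads, with a median of 20 and a maximum of 1434 in the higher library. On the sense side, 218 models missed the rule by a single count in replicate 1 and 173 by a single count in replicate 2. These 391 models differ from the silent ones by 1 read in all, which the depth cannot resolve.

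Whether a zero in 1 library held in the other was read from single libraries, because the second library then took no part in the choice. In replicate 1 alone, 1258 models of blocks 1 to 4 met the rule, and 984 of them (78.2%) had 0 sense counts in replicate 2. A further 247 had 1 to 3 counts there, and 27 (2.15%) had more than 3. Among the 11861 models that did not meet the rule in replicate 1, 503 (4.24%) had 0 in replicate 2. These include 10054 models with 10 or more sense counts in both libraries, so this contrast was partly fixed by read level. Models with few counts in replicate 1 were not set apart. In the other direction, replicate 2 alone gave 1438 models, of which 1003 (69.7%) had 0 in replicate 1 and 71 (4.94%) had more than 3. Zeros thus mostly recurred, with or without the deeper library as the one that chose.

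Few models were silent in 1 library and clearly read in the other. At least 10 counts in the second library were reached by 9 models chosen in replicate 1 and by 24 chosen in replicate 2. The highest of the first kind was ACLKA7_013969 in block 2, with 0 sense counts in replicate 1 and 89 in replicate 2 (3.48 CPM). The highest of the second kind was ACLKA7_008411 in block 4, with 46 in replicate 1 (1.76 CPM) and 0 in replicate 2. Neither had an antisense count in any library. Each was chosen for its difference, and with 1 library on each side there is no replicate check.

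**Figure D1:**
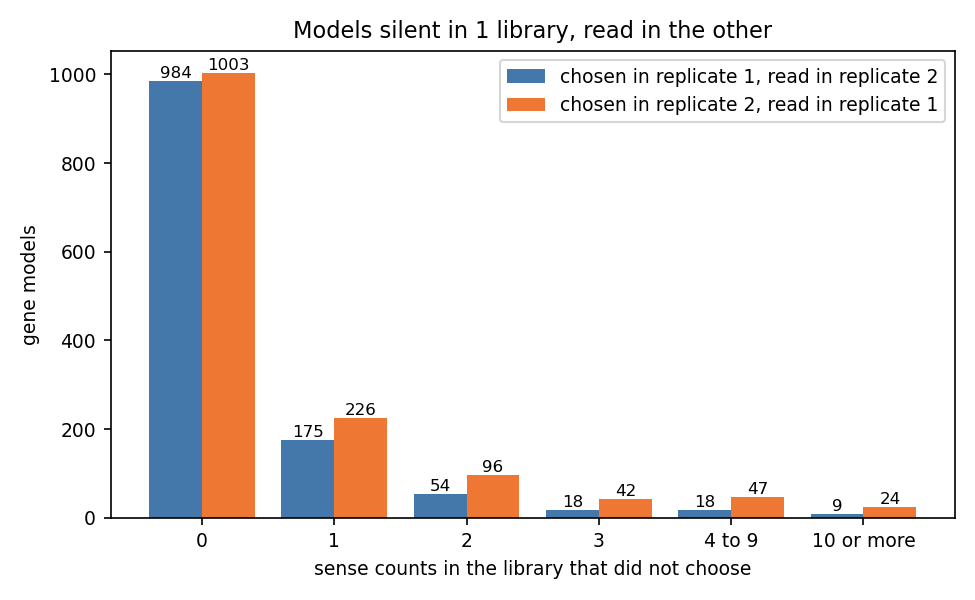
Number of gene models (vertical axis) by their sense counts in the library that did not choose them (horizontal axis), for models silent in replicate 1 (blue) and in replicate 2 (orange). The bars at 0 hold 984 and 1003 models, and the bars at 10 or more hold 9 and 24.

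The 4 blocks held similar shares of silent models. Blocks are the parts of the gene list within which tag numbers rise. Block 1 had 230 silent models of 3160 (7.28%), block 2 had 188 of 2959 (6.35%), block 3 had 248 of 3072 (8.07%) and block 4 had 314 of 3928 (7.99%). The highest share was 1.27 times the lowest. Outside these blocks, the same rule was met by 8 of 97 models in block 5 (8.25%), 360 of 3038 in block 6 (11.8%) and 899 of 1462 in block 7 (61.5%). With 1 group of 2 libraries, no test of a difference between blocks was made.

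Within a block the silent models were spread unevenly. Tag numbers jump inside each block, which cuts the 4 blocks into 9 stretches of consecutive tags, 4 of them long (over 1000 models) and 5 short (at most 433 models). Among the short stretches, 3 stood out. The 65 models ACLKA7_005032 to ACLKA7_005096 of block 3 held 20 silent models (30.8%), the 57 models ACLKA7_000001 to ACLKA7_000057 of block 1 held 13 (22.8%), and the 223 models ACLKA7_001037 to ACLKA7_001259 of block 1 held 45 (20.2%). The other short stretches held 7.62% in block 2 and 6.25% in block 4. The long stretches held between 5.97% in block 1 and 8.08% in block 4.

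Models of the short stretches were also lower where they were not silent. Over the models that were not silent, the median was 0.424 CPM in the stretch of block 3, and 0.0389 and 3.18 CPM in the stretches of block 1. The same medians of the long stretches lay between 11.2 and 14.3 CPM. CPM is not corrected for model length, which was not analysed here, so these medians compare read numbers per model and not transcript levels. In replicate 1 alone the 3 medians were 0.574, 0.0765 and 3.37 CPM, against at least 12.9 CPM in the long stretches. In replicate 2 they were 0.235, 0.0391 and 1.66 CPM, against at least 8.14 CPM in the long ones. The other short stretches, with ordinary silent shares, were also below every long one, at 9.34 CPM in block 2 and 7.97 CPM in block 4. A lower median was thus common to all 5 short stretches, and in each library too.

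**Figure D2:**
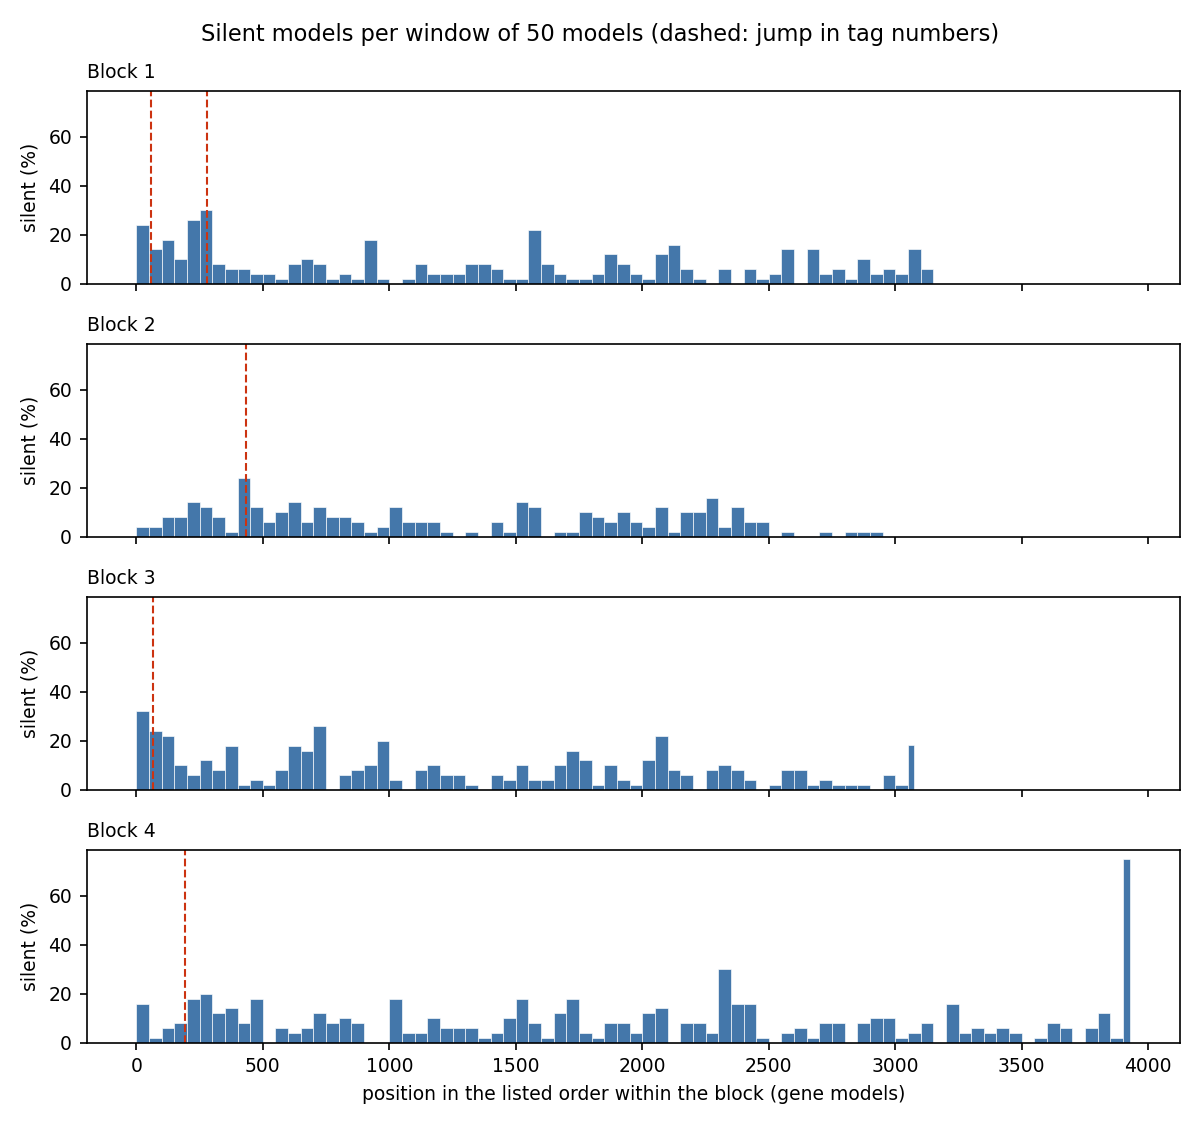
Share of silent models (vertical axis, percent) in successive windows of 50 gene models along the listed order of each of blocks 1 to 4 (horizontal axis, position in models), with dashed lines where the tag numbers jump. The last bar of a block can hold fewer than 50 models, and the highest bar is the last window of block 4 with 21 of 28 models silent (75%).

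Over 265 windows of up to 50 models, the median window of every block held 3 silent models. No silent model lay in 28 windows, while 14 windows held 10 or more. Those 14 windows made up 5.17% of the models and held 182 of the silent models (18.6%). They were picked for their silent models, so the larger share follows from the choice. The densest were the last window of block 4, with 21 silent models, and the first of block 3, with 16. Away from block ends and jumps in the tags, ACLKA7_009929 to ACLKA7_009978 in block 4 held 15 silent models of 50, and ACLKA7_015284 to ACLKA7_015333 in block 3 held 13 of 50. In these 2 windows, 48.0% and 52.0% of all models still had 10 or more sense counts in both libraries, against 76.6% over blocks 1 to 4. Their medians over all models were 0.782 and 1.15 CPM, against 9.12 CPM in the whole of block 4 and 8.65 CPM in block 3. Both measures include the silent models for which the windows were picked, so their low values follow in part from that choice. The windows held models with 10 or more counts as well as silent ones.

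The ends of the long stretches held more silent models than their interiors. Among the 25 models at each of the 8 ends, 51 of 200 were silent (25.5%), against 806 of 11949 between them (6.75%). The long stretch of block 4 ended with 21 of 25 silent. Its start held 5, and the long stretches of blocks 2 and 3 began with 9 and 8. The long stretch of block 1 ended with 0 and that of block 2 with 1, so not every end was dense. Without the end of block 4 the share at the ends was 30 of 175 (17.1%). With 10 models per end it was 34 of 80 (42.5%), and with 50 it was 72 of 400 (18%). The number of 25 was set after the positions of the longest runs had been seen.

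Silent models followed each other along the tags. Of 977 silent models with a next tag in the same stretch, 271 (27.7%) were followed by another silent model. After a model that was not silent, the next was silent in 704 of 12133 cases (5.80%), and over all models in 7.44%. The share fell with distance. It was 20.2% at 2 tags, 14.3% at 5, 10.97% at 10 and 7.76% at 20, near the 7.47% of the whole, with 8.73% at 50 and 6.89% at 100. In each block the next-tag share was above the block's own share of silent models, at 26.2%, 24.5%, 28.7% and 30.03% in blocks 1 to 4. Within the long stretches alone the next-tag share was 26.6%. Without the last 28 models of block 4, which hold the longest run, it was 26.3% over blocks 1 to 4.

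In the listed order the 980 silent models formed 709 runs, counted as silent models on consecutive tags. A shuffled order of the same models within each block would give 906.5 runs on average, as computed from the numbers of models and without any draw. Single silent models numbered 526, against 838.6 in a shuffled order. Pairs numbered 129, against 62.8, and runs of 3 numbered 38, against 4.73. Runs of 4 or more numbered 16, against 0.386. They held 82 silent models (8.37%), and runs of 2 or more held 454 (46.3%). The formula takes every order as equally likely, so it describes the clustering and does not test a cause.

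**Figure D3:**
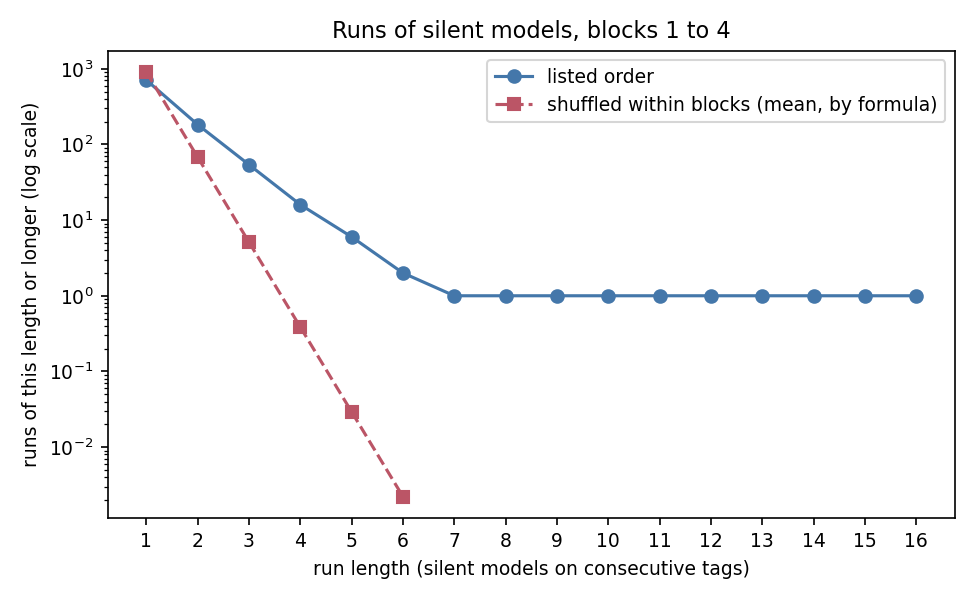
Number of runs of at least a given length (vertical axis, log scale) by run length in silent models on consecutive tags (horizontal axis), in the listed order (blue) and as the mean of a shuffled order within blocks (red, by formula, drawn down to 6 models). In the listed order 54 runs reached 3 models and 16 reached 4, against means of 5.11 and 0.386.

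The longest run held 16 silent models, ACLKA7_011541 to ACLKA7_011556, and closed block 4. Its only read was 1 antisense count in replicate 2. The model before it, ACLKA7_011540, had 1 sense count in replicate 1 and 0 in replicate 2. The run ACLKA7_011534 to ACLKA7_011538 came just ahead with 5 silent models and no count on either strand. Together, 21 of the last 23 models of block 4 were silent, and the 23 models had 1 sense count per library in all. The next tag, ACLKA7_011557, was listed in block 7, where 61.5% of models were silent, and had 0 sense counts in both libraries. Beyond the other ends of long stretches, the next tag was silent in some cases and not in others.

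The second longest run, ACLKA7_014652 to ACLKA7_014657, held 6 silent models without a count on either strand. It lay 3 models from the start of the long stretch of block 3. ACLKA7_014651 before it had 0 and 1 sense counts (replicates 1 and 2), and ACLKA7_014658 after it had 8 and 8. A run of 5, ACLKA7_012127 to ACLKA7_012131, lay 4 models from the start of the long stretch of block 2. It had no counts either, between ACLKA7_012126 with 3 and 11 sense counts and ACLKA7_012132 with 2 and 0. The models beside these runs were thus near the limit of detection themselves.

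Other runs of 5 lay deep inside a stretch. ACLKA7_013201 to ACLKA7_013205 in block 2 had 1078 models before it in its stretch and 1443 after it. On its left, ACLKA7_013200 had no sense count but 19 and 24 antisense counts, which kept it out of the rule. On its right, ACLKA7_013206 had 77 and 38 sense counts (2.95 and 1.49 CPM). A further run of the same length, ACLKA7_015502 to ACLKA7_015506 in block 3, was added after its values were seen because it tied with the others. It stood between ACLKA7_015501, with 105 and 183 sense counts, and ACLKA7_015507, with 408 and 276. Its own reads were 1 antisense count in replicate 1 and 2 in replicate 2.

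**Figure D4:**
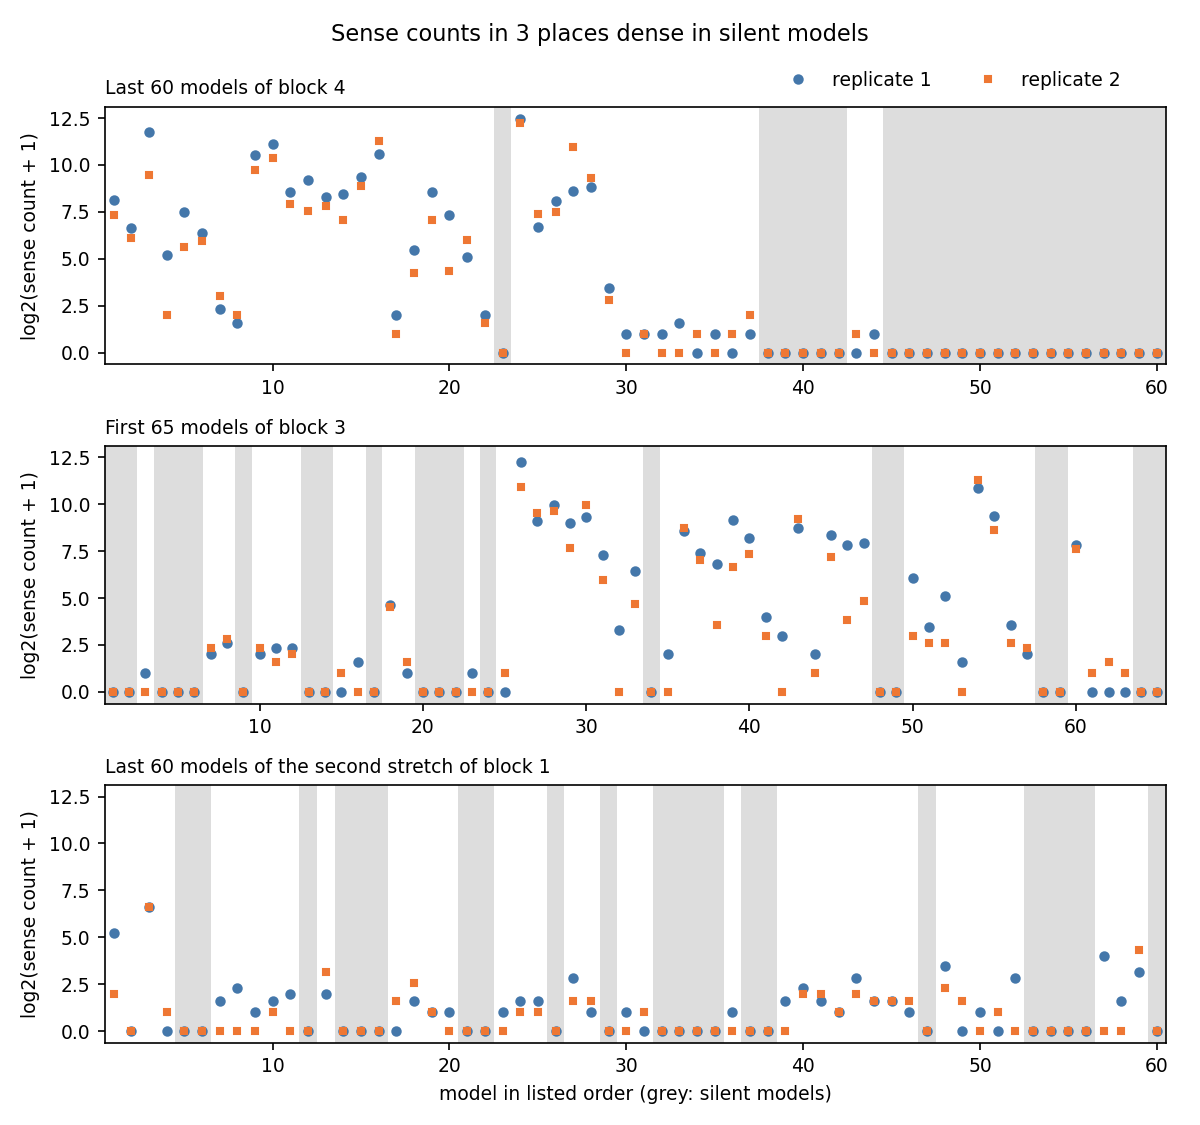
Sense counts per gene model as log2(count + 1) (vertical axis) in replicate 1 (blue) and replicate 2 (orange), for consecutive models in listed order (horizontal axis), with silent models shaded grey. The last 60 models of block 4 held 22 silent models, the first 65 of block 3 held 20, and the last 60 of the second stretch of block 1 held 22.

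Long sets of poorly read models, chosen for their low counts, held silent models among others, and are given as a description. The longest set of consecutive models below 10 sense counts in at least 1 library was ACLKA7_001203 to ACLKA7_001259 in block 1, with 57 models. Of these 22 were silent, and all 57 together had 95 sense counts in replicate 1 and 67 in replicate 2. The next longest was ACLKA7_011525 to ACLKA7_011556 at the end of block 4, with 32 models, 21 of them silent, and 18 and 13 sense counts in all. ACLKA7_000001 to ACLKA7_000028, at the very start of the list, held 28 such models, of which 10 were silent.

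The models next to a run of silent models were lower than the rest. There were 1301 such flanking models, with a median of 2.05 CPM (quartiles 0.0961 to 13.6). The other 10838 models that were not silent had a median of 13.2 CPM (quartiles 3.24 to 37.0). In replicate 1 the medians were 2.56 and 14.8 CPM, and in replicate 2 they were 1.29 and 9.92 CPM. At least 10 sense counts in both libraries were reached by 774 flanking models (59.5%), against 9280 of the others (85.6%) and 82.8% of all models that were not silent. The size of this gap depended on the rule and the libraries, while the flanking median stayed the lower in each setting tried. With no antisense count allowed, the medians were 0.913 CPM for flanking and 12.4 for other models. With at most 1 sense count they were 3.88 and 14.5 CPM, and with at most 3 they were 5.84 and 15.6 CPM. Without replicate 2 they were 3.75 and 15.7 CPM. Flanking models were required only to be not silent, so the rule kept silent models out of the set and put no other limit on level. Of the flanking models, 292 (22.4%) had at most 3 sense counts over both libraries together, against 561 of the others (5.18%). Models this close to the rule can split a run of silent models, and their part in the gap was not tested. Genes are not replicates, and no test was attached to these medians.

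The difference had the same direction in every block. In block 1 the flanking models had a median of 1.84 CPM and the others 13.0. In block 2 the medians were 3.28 and 14.9, in block 3 they were 1.84 and 12.4, and in block 4 they were 1.61 and 12.8. Within the long stretches alone they were 2.53 and 13.6 CPM, and within the short ones 0.214 and 8.02 CPM.

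The number of silent neighbours went with the level. The 109 models with a silent model on both sides had a median of 0.346 CPM, and 43.1% reached 10 counts in both libraries. The 1192 models with a silent neighbour on 1 side had a median of 2.46 CPM and 61.0%. Beside runs of 4 or more the 30 flanking models had a median of 0.195 CPM, against 2.09 beside single silent models, 1.72 beside pairs and 3.02 beside runs of 3. The medians for runs of 1 to 3 models thus followed no order by run length.

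Low flanks were common but not general. Of the 1301 flanking models, 562 (43.2%) were below 1 CPM, against 16.1% of the others, and 44 (3.38%) reached 100 CPM, against 9.65%. The highest was ACLKA7_015247 in block 3, with 250724 and 177209 sense counts (9591 and 6937 CPM, mean 8264 ± 1877, SD, n = 2). Silence of a model thus also occurred directly beside a heavily read one.

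The level rose with distance from the nearest silent model over about 4 tags. The median was 2.05 CPM at 1 tag, 5.44 at 2, 9.004 at 3 and 12.9 at 4. From 5 tags on it lay between 12.1 and 17.01 CPM, and it was 16.7 CPM beyond 20 tags. The share with 10 or more counts in both libraries went from 59.5% at 1 tag to 84.0% at 4 and 89.4% beyond 20. In the long stretches alone the medians at 1 to 4 tags were 2.53, 5.96, 9.47 and 13.9 CPM. The rise was seen in both libraries, from 2.56 to 13.9 CPM in replicate 1 and from 1.29 to 9.98 in replicate 2.

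**Figure D5:**
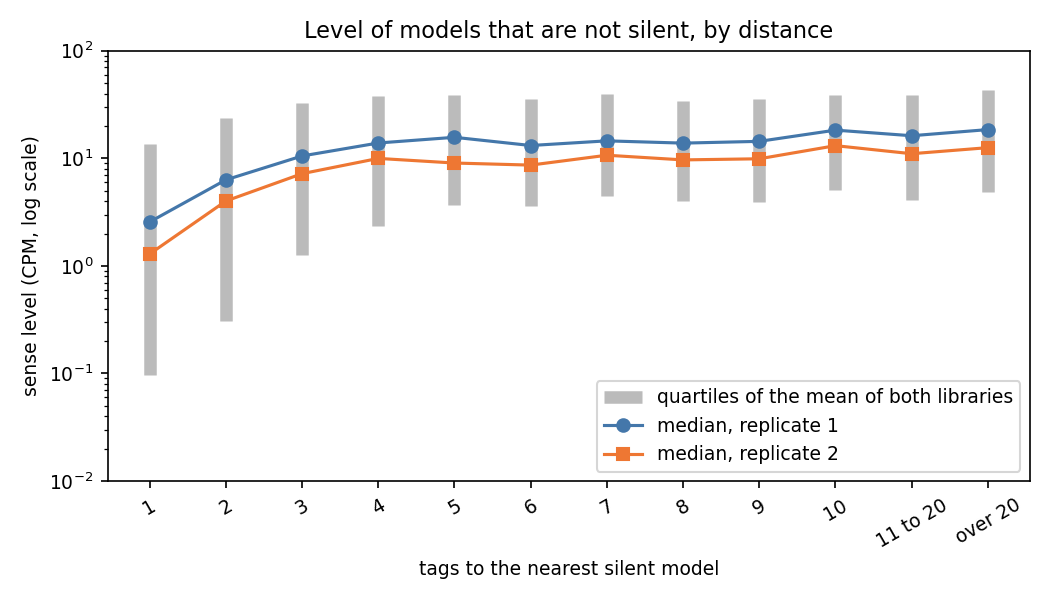
Sense level in CPM (vertical axis, log scale) of gene models that were not silent, by the number of tags to the nearest silent model in the same stretch (horizontal axis), as medians in replicate 1 (blue) and replicate 2 (orange) with quartiles of their mean (grey bars). The medians of the mean rise from 2.05 CPM at 1 tag to 12.9 CPM at 4 tags.

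Over whole windows, silent models and low levels of the remaining models went together. Across 261 full windows of 50 models, the number of silent models and log2(CPM + 1) of the median of the models that were not silent had a Pearson r of -0.58 and a Spearman rho of -0.45. The windows share libraries and depth, and no p is given. In the 26 full windows without a silent model, the median of these window medians was 16.2 CPM, with window medians from 5.23 to 27.1. In the 13 full windows with 10 or more silent models it was 4.07 CPM, with window medians from 0.0389 to 15.6. These ranges overlap, so a dense window was not always a low one.

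Beside the mostly silent last block, silent models were a small share of all models in blocks 1 to 4 (7.47%). In block 7 the next tag was silent after 65.1% of silent models, against its own share of 61.5%. In block 6 it was silent after 32.7%, against 11.8%. The longest runs were 20 models in block 7, 7 in block 6 and 3 in block 5. In block 5 the next tag was silent after 3 of 8 silent models (37.5%), against 8.25%, and so few models make this share uncertain. These pairs of values stand side by side and are not compared between blocks, because a high share leaves little room above it.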

How the data were processed

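RNA of 2 pools of whole adults was measured, and the libraries formed 1 group. The authors deposited raw counts per gene model for each library, with 3 count columns (either strand, and each strand alone). Per the submitters' processing notes, fastp and STAR 2.7.11b were used. The gene models came from BRAKER 3.0.6 with these reads as evidence, per the submitters' series description, so zeros are not an independent test of the models. The sources used here give no trimming or alignment settings.

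The first 4 lines of each table (reads counted for no model) were left out. The last column was taken as sense, since it held the larger sum. CPM used the sense totals. Blocks began where the tag number fell (7 blocks), and stretches ended where consecutive tags broke. Flanking models held the tag just before or after a run. Detection meant 10 or more sense counts in both libraries. Means for a shuffled order came from falling factorials. Run finding was checked on planted runs and the formula on shuffled orders.

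The members and all rules were chosen with earlier results of these data known. Models were named by a rule: the ends and flanks of the 5 longest runs, the silent model with the most antisense counts, the highest flank, and the extreme model silent in 1 library, with ties to the lower tag. The tied run from ACLKA7_015502, its flanks, and ACLKA7_011557 were added after their values were seen. Stretches, windows and undetected sets are named by their first and last tag. Alternatives changed the antisense and sense limits, the count column, the blocks, the neighbour rule, the flank distance, the detection minimum, the depth and the libraries. Nothing says whether the pools came from separate cultures. Python 3.11.15, pandas 2.3.3 and numpy 2.4.6 were used.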

Additional observations from a re-analysis of the deposited data

How the results depend on the processing

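No paired analysis was possible because the series has 1 group. Of 73 alternatives, 32 left the value within the SD of the single-library values (for counts, within 1.5 times) and 41 did not. That SD comes from 2 values and was small for some results. Except for the carry-over, both values applied the rule in 1 library only. The SD thus does not measure the spread of the main value, and the tally does not measure stability. Stretch ends, long stretches and the last window of block 4 were chosen after seeing the data. The cause of the shifts was not tested, except where the setting enlarges or narrows the set by construction.

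With at most 3 sense counts allowed, silent models numbered 1863 and the longest run 31; without the last 28 models of block 4, it was 6. The next-tag share was 25.1% with no antisense count, 24.7% with the unstranded column at 0, and 36.0% and 43.0% with at most 1 and 3 sense counts. The ratio of the highest to the lowest block share was 1.21 and 1.23 under the former pair of settings, 1.35 and 1.35 under the latter, 1.29 with no antisense limit, 1.87 with block 6 and 1.35 in long stretches. For these 4 settings, in the order just given for the next-tag share, the flank level was 0.913, 0.920, 3.88 and 5.84 CPM. As a mean of log2(CPM + 1) turned back to CPM, the flank level was 3.69 CPM, against 12.6 CPM for the other models. Within 5 tags the median was 6.89 CPM, against 14.6 CPM. The detected share of flanks for the same 4 settings was 52.4%, 52.5%, 68.0% and 77.7%. It was 61.0% with no antisense limit, 73.2% within 5 tags, 61.6% in long stretches, and 78.9% and 44.6% with minimums of 1 and 50 counts. The carry-over was 69.7% when replicate 2 chose. The share at stretch ends was 42.5% and 18% with 10 and 50 models, and 17.1% without the end of block 4.

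Without replicate 1 or without replicate 2, silent models numbered 1258 to 1438, the longest run 16 to 17, the block ratio 1.26 to 1.29, the next-tag share 31.8% to 35.1%, the flank level 2.51 to 3.75 CPM, the detected share 69.4% to 69.7% and the share at ends 31.5% to 32.5%. Thinning replicate 1 to the depth of replicate 2 left the carry-over at 78.2%. At this depth, models 1 read away from the rule cannot be told from silent ones.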
